A study of Mus musculus with 3 samples.

Results

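The genes described here encode the proteins of the cytosolic ribosome. They were taken by symbol: Rps or Rpl followed by a number and at most 1 of the letters a, x, y or l, together with Rplp0, Rplp1, Rplp2 and Rpsa. The rule found 81 of the 27998 genes in the files, 31 of the small (40S) and 50 of the large (60S) subunit. Genes such as Rps3a1, Fau, Gnb2l1 and Rpl22l1 are ribosomal or closely related but carry other symbols, and were followed as a separate list of 7. The counts are unique molecular identifiers (UMIs), which tag single captured mRNA molecules. A barcode was taken as a cell with at least 500 UMIs, a number of genes within the limits the study set, and under 8.3% of UMIs in mt- (mitochondrial) genes, which left 7057 cells. The ribosomal protein genes held 4321972 of the 23833529 UMIs in these cells, and 80 of the 81 genes had at least 1 UMI.

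The study asked how chronic social defeat (CSD), a stress model in which a mouse is repeatedly defeated by a larger aggressor, changes the cells of the meninges, the membranes around the brain. Male C57BL/6J mice of 10 to 12 weeks were either unstressed in the homecage (HC) or defeated for 14 days and picked as stress-susceptible by behavioral tests. Live nucleated single cells (DAPI- DRAQ5+) from meninges were sorted and captured on 1 droplet chip as 3 libraries, each pooled from 4 mice. They are called HC replicates 1 and 2 and CSD replicate 1, and values for single libraries are given in that order. With 1 CSD pool, the effect of stress and the difference between pools cannot be told apart.

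A ribosome is built from ribosomal RNAs and roughly equal numbers of each ribosomal protein, so the genes of this set are normally expressed together and in similar amounts. Their mRNAs belong to the 5' TOP class, which begin with a run of pyrimidines right at the cap, and growth signals through mTOR control how strongly they are translated. Cells that divide or grow hold many of these mRNAs. Neutrophils are short-lived granulocytes that make most of their granule proteins in the bone marrow, before they are released.

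The windows around the transcript start are shown for members on which the results turn, since this is where a 5' TOP run would lie. Each runs from 10 bases before to 20 bases from the annotated start, 5' to 3' on the gene's own strand, from RefSeq promoters of GRCm38.p6, the assembly called mm10 in the submitters' processing notes. Capitals mark CTTTC and CTTTT. Rps27, Rpl38, Rpl12 and Rpl28 carry CTTTC or CTTTT in this window, and Rps9, Rps2, Rplp0, Rps28 and Rps27l do not. Other runs of pyrimidines were not searched for. The Rps9 window, for example, holds an unbroken run of pyrimidines across the annotated start.
Rps27, chr3:90213629-90213658, minus strand: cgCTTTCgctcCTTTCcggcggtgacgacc
Rpl38, chr11:114668570-114668599, plus strand: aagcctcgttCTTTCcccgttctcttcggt
Rpl12, chr2:32961702-32961731, plus strand: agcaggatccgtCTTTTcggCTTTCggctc
Rpl28, chr7:4792955-4792984, plus strand: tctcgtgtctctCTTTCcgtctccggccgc
Rps9, chr7:3704031-3704060, plus strand: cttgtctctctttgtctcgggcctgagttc
Rps2, chr17:24720053-24720082, plus strand: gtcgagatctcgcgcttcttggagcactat
Rplp0, chr5:115559457-115559486, plus strand: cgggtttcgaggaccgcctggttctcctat
Rps28, chr17:33824543-33824572, minus strand: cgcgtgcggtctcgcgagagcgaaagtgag
Rps27l, chr9:66946076-66946105, plus strand: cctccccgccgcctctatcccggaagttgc
Promoters were given for 60 of the 81 genes. Within 20 bases on either side of the start, CTTTC or CTTTT stood on the gene strand in 21 of those 60 (35%), against 9.18% of all 27025 genes with a promoter. On the opposite strand the shares were 6.67% and 8.33%. CTTTC alone stood on the gene strand in 30.0% of the ribosomal protein genes and 5.38% of all genes. The motif CCGGAAG stood on either strand in 11.7% against 2.97%. A match says only that these letters are in the window.

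Cells were clustered without the 81 genes, and clusters were named only from marker lists, so that the shares below did not shape the names. Of 27 clusters, 24 could be named, as 17 cell types, each called "-like", and 173 cells stayed in unnamed clusters. The share of UMIs in ribosomal protein genes differed widely between these types. It was highest in T-like cells, where the 81 genes made up 36.7 and 35.3% of UMIs in the HC libraries and 34.5% in the CSD library (35.5% ± 1.10, SD, n = 3 libraries). It was low in neutrophil-like cells, with 8.48%, 7.72% and 6.05% (7.42% ± 1.25, n = 3), and erythroid-like cells overlapped with them (9.54%, 6.09% and 7.03%). The exact 95% binomial interval of each share was narrow, for example 8.44 to 8.52% in the neutrophil-like cells of HC replicate 1, and covers counting error only. No T-like library reached the neutrophil-like range. The T-like cells pooled a cluster of 373 cells at 36.3% and a cluster of 55 cells at 28.8%. An unnamed cluster of 47 cells, with Gata3 and Il1rl1 among its top genes, held 37.5%.

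Between these ends, lymphocytes stood high and most myeloid cells lower. Mature B-like cells held 33.1% ± 1.88 and NK-like cells 30.2% ± 1.11 (both n = 3). The conventional dendritic cell (cDC)-like cells held 29.8% ± 2.40, pro-B-like cells 28.03% ± 1.07, mast cell and basophil-like cells 31.6% ± 1.65 and plasmacytoid dendritic cell (pDC)-like cells 26.6% ± 3.77. Those neighbors in the order overlapped in at least 1 library, so their order is not settled. The mast cell and basophil-like value also depends on the clustering. With finer clusters (Leiden resolution 2) a mast cell and basophil-like cluster of 48 cells held 24.0%. A hematopoietic progenitor-like cluster of 53 cells, a name absent from the main clusters, held 36.2%. The 31.6% may thus mix cell types. Immature B-like cells (24.6% ± 1.84) and monocyte-like cells (23.6% ± 1.42) also overlapped. Border macrophage-like cells, the macrophages of the meninges and perivascular spaces, held 20.9% ± 0.474, and microglia-like cells held 14.4% ± 0.978. All 3 border macrophage libraries were above all 3 microglia libraries. Fibroblast-like (12.9% ± 1.93), olfactory neuron-like (10.3% ± 1.38) and erythroid-like (7.56% ± 1.78) cells were low. Endothelial-like cells held 15.9% ± 2.03, from 37 cells in all.

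**Figure D1:**
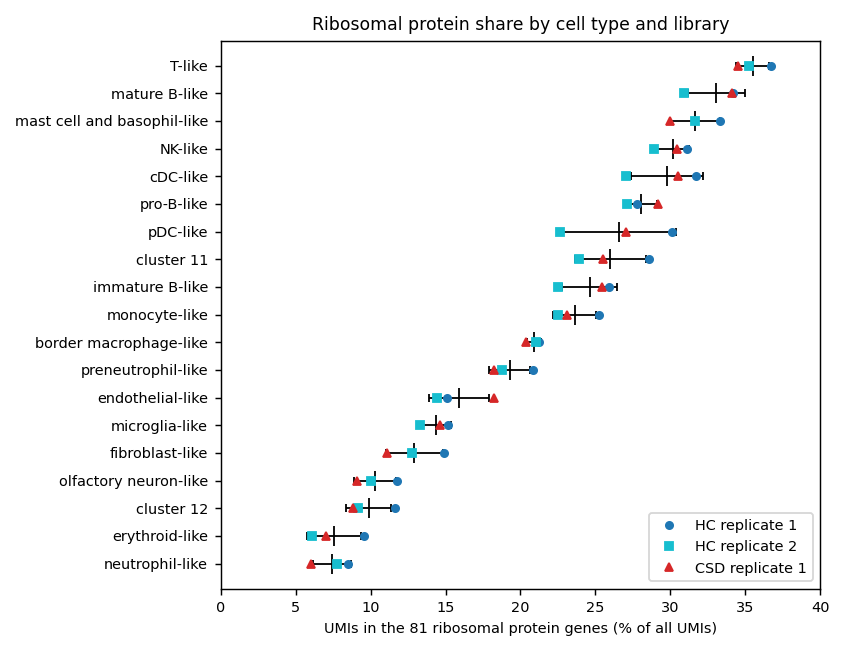
Percent of UMIs in the 81 ribosomal protein genes (x axis) by cell type or cluster (y axis). Symbols are the 3 libraries, the vertical tick is their mean and the horizontal bar 1 SD. T-like cells lie between 34.5 and 36.7% and neutrophil-like cells between 6.05 and 8.48%.

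The low share in neutrophils was a low number of molecules as well as a low fraction. A neutrophil-like cell held on average 184 ± 23.3 ribosomal protein UMIs and 2312 ± 191 other UMIs, and a T-like cell 903 ± 95.8 and 1639 ± 167 (n = 3). Among neutrophil-like cells the share fell with depth, with Spearman's rho of -0.41, -0.48 and -0.28 in the 3 libraries over 790, 586 and 1321 cells. In the T-like cells rho was 0.54, 0.49 and 0.40. These are descriptions over cells of 1 pool each. With every cell thinned to 500 UMIs the T-like share was 34.4% and the neutrophil-like share 7.73%.

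Free RNA is a second value that stands beside these shares. Barcodes with at most 100 UMIs, which hold RNA from burst cells, had 18.3%, 17.1% and 15.8% of their UMIs in ribosomal protein genes in the 3 libraries, more than a neutrophil-like cell. Genes of other cell types put the free RNA in neutrophil-like cells at 23.1%, 26.3% and 18.5% of UMIs. After subtracting that profile the neutrophil-like share was 4.53% ± 0.842 and the T-like share 41.9% ± 1.54, so the gap between these types was wider.

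The clusters named preneutrophil-like or neutrophil-like were not alike. Cluster 11, led by the primary granule genes Prtn3, Ctsg, Elane and Mpo and by cell division genes, held 26.0% ± 2.37 of its UMIs in ribosomal protein genes (28.6%, 23.9% and 25.5%). Its top genes also held the monocyte markers Fn1 and F13a1. At Leiden resolution 2, a preneutrophil-like cluster of 114 cells led by Prtn3 and Elane held 28.2%. A monocyte-like cluster of 84 cells led by Fn1 and cell division genes held 22.7%. Cluster 11 may thus not be granulocyte precursors alone. Cluster 12, led by Fcnb, Camp and Chil3, held 9.87% ± 1.51. The neutrophil-like clusters held 7.88% ± 1.01 (cluster 5, led by the secondary granule genes Ltf, Camp and Ngp), 7.06% ± 1.26 (cluster 2, led by Mmp8 and Mmp9) and 7.47% ± 1.48 (cluster 1, led by Il1b, with Cxcr2). The 3 values of cluster 11 were all above those of cluster 12. The values of the last 3 clusters overlapped. Cluster 12 had a median of 850 UMIs in HC replicate 2 against 10559 and 10654 in the others.

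The ribosome's 2 subunits were represented in nearly the same proportion in every type. The 40S genes made up 43.2% to 47.2% of the ribosomal protein UMIs over the 17 types. The highest was in neutrophil-like cells (47.2% ± 0.599) and the lowest in fibroblast-like cells (43.2% ± 0.0546).

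Single genes were then compared between cell types on UMIs summed per library and type, with edgeR's quasi-likelihood test, library as a block, and Benjamini-Hochberg adjustment over every gene seen in more than 15% of the cells. Values are CPM, the UMIs of a gene in 1000000 UMIs, on the scale of the fit, which differs between comparisons, and folds are log2. A gene was called at an adjusted p below 0.05. Of the 81 genes, 78 passed that filter in these 4 comparisons, and Rpl3l, Rpl10l and Rpl39l did not.

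T-like cells exceeded neutrophil-like cells in 77 of the 78 genes, at a median log2 fold change of 1.91. Over all 1392 genes tested, 38.4% were called higher and 39.8% lower, and the median was -0.02. The largest difference was in Rpl12, a 60S protein of the stalk base, with 2809, 2552 and 2665 CPM in T-like cells and 358, 358 and 292 CPM in neutrophil-like cells. Its log2 fold change was 3.00 ± 0.0941 (SE, edgeR adjusted p = 1.39e-15). Rpl36a (2.76), Rps28 (2.57), Rpl3 (2.57) and Rps18 (2.57) followed. No library of the T-like cells overlapped with the neutrophil-like range in any of these 5 genes.

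A few members stood apart at the other end of that comparison. Rps9, which the small subunit needs for accurate decoding, had 4221, 4360 and 4262 CPM in T-like cells and 2748, 2815 and 3526 CPM in neutrophil-like cells, a log2 fold change of 0.51 ± 0.0861 (edgeR adjusted p = 2.76e-05). Rps27a, which is made as a fusion of ubiquitin with a 40S protein, rose by 0.55 ± 0.0765 (edgeR adjusted p = 2.54e-06). Rps27l, a copy of Rps27 known as a p53 target, was the single gene not called, with 216 ± 8.41 CPM in T-like and 205 ± 24.8 CPM in neutrophil-like cells and a log2 fold change of 0.08 (edgeR adjusted p = 0.566). Among the genes fixed by name, Rpsa, the laminin receptor precursor of the 40S subunit, rose by 2.01, and the stalk proteins Rplp0, Rplp1 and Rplp2 by 2.11, 2.37 and 1.99. Rps4x, the X-linked form of Rps4, rose by 1.81.

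Preneutrophil-like cells, the pool of clusters 11 and 12, exceeded neutrophil-like cells in 73 of 78 genes, at a median log2 fold change of 0.88, where 38.5% of the 3158 genes tested were called higher and 39.5% lower. The 5 largest rises were in Rps2 (1.87 ± 0.0950), Rpl3 (1.69), Rpl36a (1.58), Rpl35 (1.56) and Rpl15 (1.51). Rps2, a 40S protein at the entry of the mRNA channel, had 1664, 1844 and 1941 CPM in the preneutrophil-like and 440, 572 and 491 CPM in the neutrophil-like cells (edgeR adjusted p = 1.29e-26). Rps27 fell by 0.31 ± 0.0903 (edgeR adjusted p = 0.00147) and Rps9 by 0.26 ± 0.0911 (edgeR adjusted p = 0.00900), but both turned to rises, of 0.57 and 0.63, when libraries were scaled to the UMIs outside ribosomal protein and mt- genes. Rps27 had 2915, 1387 and 1530 CPM against 3486, 1909 and 1797 CPM, so it was lower within each library while the 2 ranges overlapped. Cluster 11 alone gave a median of 0.97, and cluster 12 alone 0.25 with 44 genes called higher and 4 lower, where 29.3% of all genes tested were called higher and 31.4% lower. That split was added after the data were seen. Since cluster 11 also carried monocyte markers, the pool may not be preneutrophils alone.

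These 4 comparisons depend on the scaling. When scaled to UMIs outside ribosomal protein and mt- genes, the median of all genes shifted to 0.98 for T-like against neutrophil-like cells and to 0.88 for preneutrophil-like against neutrophil-like cells. Relative to the median of all genes, the ribosomal protein genes stood at 1.93 under both scalings in the first and at 0.89 and 0.88 in the second. A change of scaling shifts all genes of a comparison by nearly the same amount. This likeness was therefore fixed in advance and is no check on the result.

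Pro-B-like cells, dividing precursors in which the antibody heavy chain is assembled, were below mature B-like cells in 66 of 78 genes, at a median log2 fold change of -0.56. Over all 2229 genes tested 26.9% were called lower and 25.9% higher. The largest fall was in Rps27, a zinc finger protein of the 40S subunit, with 5427, 2955 and 3500 CPM in pro-B-like and 17122, 9344 and 11125 CPM in mature B-like cells. It fell by 1.66 ± 0.0885 on the log2 scale (edgeR adjusted p = 5.75e-74), and the pro-B-like range lay below the mature B-like range. Rps24 (-1.04), Rpl38 (-1.0), Rpl37a (-1.0) and Rpl34 (-0.93) followed. Only Rps27l and Rpl28 were called higher. Rps27l had 493, 559 and 587 CPM against 228, 204 and 234 CPM, a log2 fold change of 1.30 ± 0.159 (edgeR adjusted p = 4.08e-15). With clusters of Leiden resolution 2 the Rps27l value was 0.66 and no longer called. The pro-B-like cells then numbered only 12, 7 and 17 in the 3 libraries, against 50, 44 and 64 in the main clusters. A cluster of 122 cells led by Myl4 and cell division genes was named immature B-like there. Rpl28, a 60S protein, rose by 0.30 ± 0.0964 (edgeR adjusted p = 0.00449), but stood at -0.09 with those clusters. Rplp0 (0.12, edgeR adjusted p = 0.261) and Rpsa (-0.19, edgeR adjusted p = 0.0716) were not called.

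**Figure D2:**
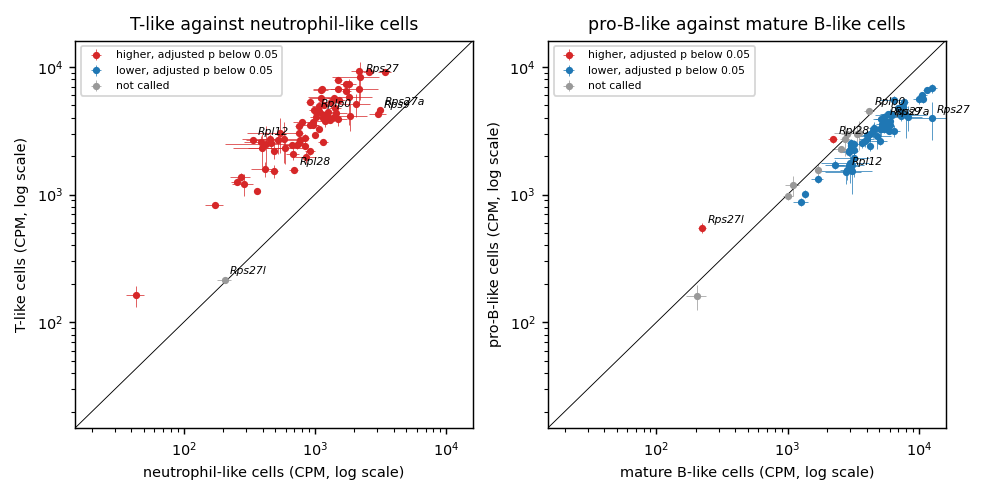
Mean CPM of each tested ribosomal protein gene in 2 cell types (both axes logarithmic, bars 1 SD over 3 libraries), with equal levels on the line. On the left, T-like cells lie above neutrophil-like cells for all genes but Rps27l, which lies on the line. On the right, pro-B-like cells lie below mature B-like cells for most genes, with Rps27 lowest and Rps27l highest.

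Border macrophage-like and monocyte-like cells differed little, with 9 genes called higher and 5 lower in the macrophages at a median log2 fold change of 0.05. Over all 2557 genes tested, 19.6% were called higher and 17.5% lower, so both counts are below the background. Rplp0 had 2606, 3040 and 2628 CPM in border macrophage-like and 4428, 4383 and 4383 CPM in monocyte-like cells, a fall of 0.68 ± 0.0947 on the log2 scale (edgeR adjusted p = 2.84e-06) without overlap. Its stalk partner Rplp1 went the other way, with 3909 ± 255 against 2939 ± 202 CPM and a log2 fold change of 0.41 (edgeR adjusted p = 0.00104). Rps29 (0.51), Rpl12 (0.36), Rpl36 (0.32) and Rps27 (0.32) were also called higher, and Rpl4 (-0.40), Rpsa (-0.31), Rpl28 (-0.28) and Rps27a (-0.24) lower. With the other scaling the median of the ribosomal protein genes was -0.23 and that of all genes -0.25.

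Members differed in how far their place within the sum of ribosomal protein UMIs varied between cell types. For the 78 genes with at least 20 UMIs in each of 12 cell types, the share of the sum was taken on the log2 scale and its SD over types set beside the SD between libraries. It varied least in Rpl27a, Rpl11 and Rpl23 (0.07 each), which are core 60S proteins. The 6 most variable were Rps27l (0.79, against 0.12 between libraries), Rps27 (0.39, against 0.37), Rps27a (0.37, against 0.10), Rps9 (0.37, against 0.16), Rpl28 (0.36, against 0.09) and Rplp0 (0.33, against 0.10). In 55 of the 78 genes the spread over types was the larger one. The level of Rps27 moved about as much between libraries as between cell types.

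Rps9 and Rps27a took an unusually large part of the sum in neutrophil-like cells. Rps9 made up 2.82 and 3.34% of the ribosomal protein UMIs of these cells in the HC libraries and 4.64% in the CSD library (3.60% ± 0.937, n = 3), against 1.30%, 1.46% and 1.46% in T-like cells. Rps27a made up 3.29%, 3.60% and 4.14%, against a mean of 1.44% in mature B-like cells. In all 3 libraries these neutrophil-like shares exceeded the T-like or mature B-like share named with them. Along the granulocyte clusters 11, 12, 5, 2 and 1, in the order of their markers from primary granules to Cxcr2, the mean share of Rps9 was 1.64, 2.41, 2.88, 3.45 and 4.43%, and that of Rps27a 2.00, 2.50, 2.98, 3.81 and 4.14%. Over the same clusters Rps2 went from 1.31 to 0.51% and Rplp0 from 2.00 to 1.11%. Cluster 11, where this order starts, also carried monocyte markers. Clusters 11 and 1 did not overlap in Rps9, with 1.44, 1.74 and 1.74% against 3.53, 3.90 and 5.86%. All these shares of the sum include free RNA, put at 23.1%, 26.3% and 18.5% of neutrophil-like UMIs in the 3 libraries. It was lowest in the CSD library, where the neutrophil-like shares of Rps9 and Rps27a were highest. The part of free RNA in these shares was not tested.

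The other variable members had their extremes elsewhere. Rps27 was highest in mature B-like cells, with 4.16%, 2.76% and 2.86% of the sum, and lowest in preneutrophil-like cells, with 1.67%, 0.992% and 1.05%. Rpl28 was highest in pro-B-like cells (1.11%) and lowest in T-like cells (0.508%). Rplp0, the scaffold of the stalk to which the Rplp1 and Rplp2 dimers bind, was highest in monocyte-like cells (2.02%) and lowest in olfactory neuron-like cells (0.937%). Rplp1 ranged from 1.29 to 2.34%, Rplp2 from 1.32 to 1.96%, Rpsa from 0.746 to 1.22% and Rps4x from 1.45 to 1.88% over the 12 types.

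**Figure D3:**
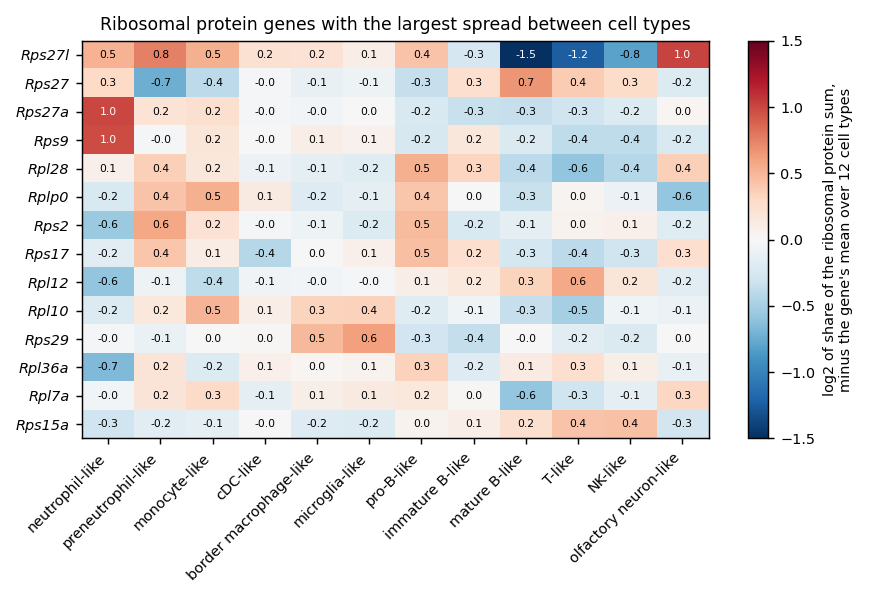
Log2 of each gene's share of the ribosomal protein UMIs, minus its mean over 12 cell types, for the 14 genes with the largest spread (rows) in each type (columns); red is above and blue below the gene's mean. Rps9 and Rps27a stand highest in neutrophil-like cells (0.97 and 1.00), and Rps27l lowest in mature B-like cells (-1.51) and highest in olfactory neuron-like cells (1.01).

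The members whose symbol ends in l after the number are copies of other ribosomal protein genes, and 3 of the 5 were scarce. Rpl10l, a testis copy, had 0 UMIs in all cells. Rpl39l had 15 UMIs and Rpl3l, the striated muscle copy of Rpl3, had 126, of which 83 were in neutrophil-like cells. Rpl6l had 2461 UMIs and Rps27l 8808. Reads of a near-identical copy can be counted for the wrong gene, so the level of Rpl6l is uncertain. Its UMIs were 4.69 to 6.38% of those of Rpl6 in the 10 types with at least 100 Rpl6l UMIs, for example 5.18% ± 0.488 in neutrophil-like and 5.87% ± 0.658 in T-like cells, a ratio that hardly moved between cell types.

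Rps27l did move against its parent gene. It came to 1.87% ± 0.472 of the Rps27 UMIs in mature B-like cells, 9.87% in neutrophil-like, 15.9% in monocyte-like, 20.2% in olfactory neuron-like and 24.3% ± 7.70 in preneutrophil-like cells (n = 3 libraries). In all 17 types this ratio was lowest in HC replicate 1, the library with the most Rps27. As a share of the sum, Rps27l made up 0.0550%, 0.0603% and 0.0604% in mature B-like cells and 0.312%, 0.339% and 0.357% in olfactory neuron-like cells. Those ranges lay far apart, and the 3 libraries of each type were close together.

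The other genes of protein synthesis were followed as lists. T-like against neutrophil-like cells raised 6 of the 6 tested ribosomal genes outside the symbol rule, among them Rpl22l1 (2.43) and Gnb2l1 (1.92, the scaffold also called Rack1). Of the translation factors and other genes of the 5' TOP class, 17 of 17 tested rose, led by the nucleolar protein Npm1 (2.65), Eif3e (2.48) and Eef1g (2.38). Preneutrophil-like against neutrophil-like cells raised 16 of 19 of that class and lowered Eif4a2 (-0.83). Of ribosome biogenesis genes, 4 of 4 tested rose in T-like cells and 7 of 8 in preneutrophil-like cells, led there by the box C/D proteins Nop58 (2.85) and Nop56 (2.54) and the methyltransferase Fbl (1.57). Mitochondrial ribosomal protein genes rose in 45 of 58 and fell in 3 in that comparison. In T-like cells 11 of 23 of them rose, with Mrpl52 at 2.26, and 3 fell, with Mrpl33 at -1.88, where 38.4% of all genes were called higher and 39.8% lower.

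In pro-B-like against mature B-like cells, where 25.9% of all genes were called higher and 26.9% lower, the lists are given side by side with no test between them. While 66 ribosomal protein genes fell, 4 of the 7 genes outside the rule also fell, led by Fau (-1.14), the ubiquitin-like fusion of a 40S protein. The 5' TOP class had 3 rises, Hnrnpa1 (1.03), Nap1l1 (0.66) and Npm1 (0.53), and 7 falls, led by Eif4a2 (-1.57). Ribosome biogenesis genes rose in 5 of 12, with Nop58 at 1.47 and Gar1 at 1.10, and none fell. Mitochondrial ribosomal protein genes rose in 19 of 52, with Mrps28 at 1.80, and 1 fell, Mrps34 (-0.95). In border macrophage-like against monocyte-like cells 1 mitochondrial gene rose and 10 of 49 fell, with Mrpl33 at -1.39, near the 17.5% of all genes called lower, and Ncl was the single biogenesis gene called (0.69). Of the 14 regulators of ribosomal protein synthesis, few reached the filter. Eif4ebp1, the translational repressor that mTOR switches off, was lower in T-like (-1.62) and in preneutrophil-like (-0.88) than in neutrophil-like cells. Of 3 regulators tested in the preneutrophil-like comparison, 1 was called higher and 1 lower. Of 2 tested in the T-like comparison, 1 was called lower and 0 higher. These are too few to set beside the shares of all genes.

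The 3 libraries differed in size and in free RNA before any stress comparison. They gave 2599, 1702 and 2756 cells from 9891861, 8814690 and 10206236 UMIs, with a median of 2503, 2212 and 2400.5 UMIs per cell. HC replicate 2 had 24.1% of its UMIs in barcodes of at most 100 UMIs, against 7.87% and 5.48% in the others. Pairs of libraries shared 8, 6 and 3 cell barcodes. Over all cells, ribosomal protein genes held 20.4%, 18.5% and 15.8% of UMIs, a total that moves with the mix of cell types.

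HC replicate 1 stood apart from both other libraries in the ribosomal protein genes with the shortest coding sequence. Rps29, whose coding sequence of 168 bases is among the shortest here, had 2573 CPM in the neutrophil-like cells of HC replicate 1 but 1069 and 1089 CPM in those of HC replicate 2 and CSD replicate 1. In T-like cells it had 9797, 5036 and 5329 CPM. The log2 ratio of HC replicate 1 to HC replicate 2, with the median of all genes set at 0, had a median over 12 cell types of 1.20 for Rps29, 1.09 for Rpl38, 1.00 for Rpl35, 0.98 for Rps28 and 0.92 for Rpl39. Both are homecage pools, so this difference is not one of stress. It was there in empty droplets too, at 1.13 for Rps29.

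The difference followed coding length across the set, and the length of the whole mRNA less closely. Members under 300 bases had a median log2 ratio of 0.72 to 1.07 over the 12 types, and members of at least 600 bases one of -0.12 to 0.18. Spearman's rho with coding length, over 77 genes within a type, ran from -0.85 in neutrophil-like cells and -0.81 in T-like cells to -0.61 in NK-like cells. With whole mRNA length it ran from -0.55 in border macrophage-like to -0.24 in NK-like cells. Rps27l, with 252 coding bases, had a median ratio over types of only 0.20. In other genes under 300 bases the median was 0.13 to 0.29, and over other genes of every length rho was -0.31 to -0.08, so the median of short ribosomal protein genes was above that of other short genes in each type. CSD replicate 1 against HC replicate 2 gave a weaker rho of -0.49 to -0.15. Of the 78 genes, 26 were higher in HC replicate 1 than in HC replicate 2 in all 12 types. These are correlations across genes of 1 ratio, in which all genes share the same pair of libraries, and lengths are those of principal transcripts in GENCODE vM21.

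**Figure D4:**
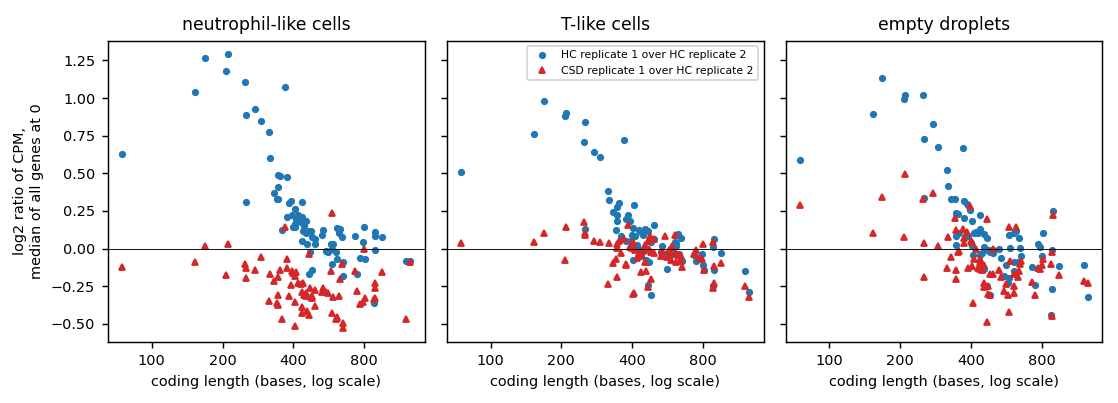
Log2 ratio of CPM between libraries, with the median of all genes at 0 (y axis), against coding length in bases (x axis, logarithmic) for single ribosomal protein genes in neutrophil-like cells, T-like cells and empty droplets. Short genes lie high in HC replicate 1 over HC replicate 2 (circles), with a median of 0.98 for members under 300 bases in neutrophil-like cells, while CSD replicate 1 over HC replicate 2 (triangles) has a median of -0.11 for these members in neutrophil-like cells.

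Whether stress changed these genes was asked within each of the 12 types that had at least 30 cells in every library. CSD and HC were compared with edgeR's quasi-likelihood test on 2 HC and 1 CSD library, which leaves 1 residual degree of freedom and assumes that CSD pools vary like HC pools. No member was called in 11 of the 12 types, by edgeR or by DESeq2. The share of all genes tested that was called in either direction was 0 in border macrophage-like, cDC-like, mature B-like, microglia-like and NK-like cells, 0.0332% in monocyte-like, 0.0625% in T-like, 0.0723% in immature B-like, 0.686% in pro-B-like, 0.871% in olfactory neuron-like, 1.07% in preneutrophil-like and 1.34% in neutrophil-like cells. At an unadjusted p under 0.05 there were 26 of 77 members in neutrophil-like cells, where 15% of all genes tested were past that limit, and 13 of 78 in olfactory neuron-like cells, against 6.15%. T-like cells had 2 members, against 3.75% of all genes, and preneutrophil-like cells 1, against 4.8%. The other 8 types had none, against 2.67 to 6.40% of all genes.

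In neutrophil-like cells most fold changes were negative and none passed the test. Of 77 members tested 76 had a negative log2 fold change, at a median of -0.37, and in 70 the CSD library was below both HC libraries, where 37.4% of all genes tested lay so. With no filter on the share of cells the median was -0.14. The median of all genes is held near 0 by the scaling. Rps20, a 40S protein of the head, had 920, 844 and 615 CPM, a log2 fold change of -0.52 ± 0.158 (edgeR adjusted p = 0.225). Rpl13a, a 60S protein known for a role outside the ribosome in silencing inflammatory mRNAs, had 2040, 2071 and 1513 CPM (-0.44, edgeR adjusted p = 0.246). In both genes the HC libraries lay close together and the CSD library below them.

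The most negative values were another matter. Rps28 had 608, 268 and 239 CPM (-0.88, edgeR adjusted p = 0.355), Rpl36 671, 392 and 311 CPM (-0.78, edgeR adjusted p = 0.286) and Rps21 807, 374 and 351 CPM (-0.75, edgeR adjusted p = 0.389). In each of these the gap between the 2 HC libraries exceeded that between HC replicate 2 and CSD replicate 1. The 8 members listed for short mRNAs (Rps27, Rps28, Rps29, Rpl37, Rpl37a, Rpl38, Rpl39 and Rpl41) each had a coding sequence under 300 bases. The mRNA of Rpl37 is longer, at 835 bases, and Rps21 and Rps27l, also under 300 coding bases, were not listed. The 8 had a median of -0.70 and the other members -0.35. Against HC replicate 2 alone, the same 8 genes stood at a median of -0.11 and the other members at -0.29. These 2 values are log2 ratios of CPM with the median of all genes at 0, not edgeR folds. Rps9 was the single member with a positive value, at 2446, 2446 and 2900 CPM (0.25 ± 0.132, edgeR adjusted p = 0.398), followed by Rpl4 (-0.04) and Rpl7a (-0.07). The share of UMIs in the 81 genes was lower in the CSD library in each neutrophil-like cluster, at 8.81, 7.73 and 5.88% in cluster 1, 8.16, 7.35 and 5.68% in cluster 2 and 8.50, 8.42 and 6.72% in cluster 5. Thinned to 500 UMIs a cell it was 8.76, 8.36 and 6.07%, and with free RNA subtracted 5.45, 4.34 and 3.8%. A CSD neutrophil-like cell held 163 ribosomal protein UMIs on average, against 209 and 181, while its median depth was the highest, 2170 UMIs against 1918.5 and 1693. The part of depth and free RNA in this difference was not tested beyond these values.

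**Figure D5:**
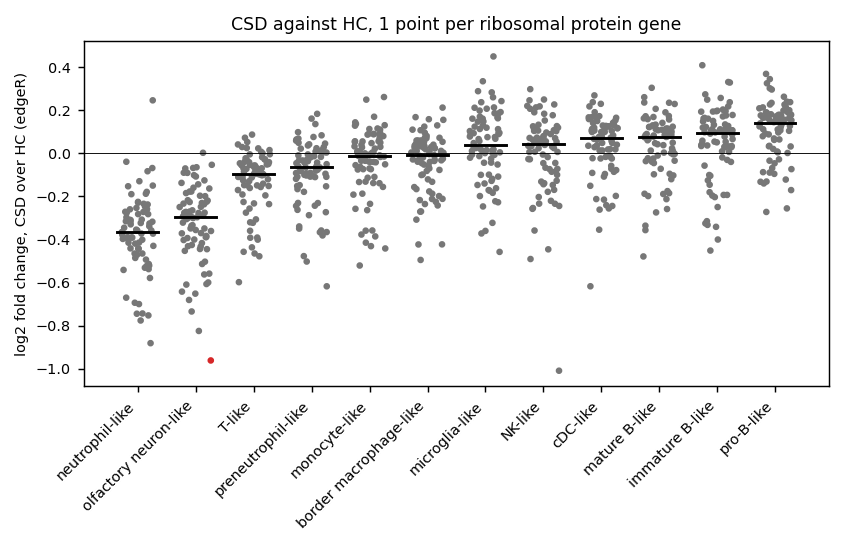
Log2 fold change of CSD against HC (y axis, edgeR) for each ribosomal protein gene tested (points) by cell type, with the median as a bar and the called gene, Rps28 in olfactory neuron-like cells, in red. The median is -0.37 in neutrophil-like and -0.30 in olfactory neuron-like cells and between -0.10 and 0.14 in the other 10 types, and the lowest point in NK-like cells is Rpl6l (-1.01).

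Olfactory neuron-like cells gave the single called member. Rps28 had 950, 435 and 361 CPM, a fall of 0.96 ± 0.251 on the log2 scale (edgeR adjusted p = 0.0182), with a gap between the HC libraries larger than that between HC replicate 2 and CSD replicate 1. DESeq2 did not call it, and the edgeR call was lost with other scaling, with no filter, and with doublets or free RNA removed. In these cells 77 of 78 members were negative, at a median of -0.30, and 68 lay below both HC libraries, against 33.2% of all genes tested. With the free RNA profile subtracted the median turned to 0.07.

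The other 10 types had medians closer to 0. The value was -0.10 in T-like cells, where 49 of 78 members lay below both HC libraries against 34.2% of all genes. It was -0.07 in preneutrophil-like, -0.01 in monocyte-like and border macrophage-like, 0.04 in microglia-like and NK-like, 0.07 in cDC-like, 0.08 in mature B-like and 0.09 in immature B-like cells. Pro-B-like cells had the highest median, 0.14, with 63 of 78 members positive and 53 above both HC libraries against 33.3% of all genes. Rpl12 (0.37), Rpl23 (0.34) and Rpl7a (0.32) stood highest there, none of them called (edgeR adjusted p = 0.913, 0.840 and 0.940). The same HC libraries enter all 12 comparisons, so likeness between them is not independent. Rps28 was among the 3 lowest members in 11 of the 12 types, Rps29 in 7 and Rps27 in 6, all genes that were high in HC replicate 1. Of the other genes of protein synthesis none was called in any type. In neutrophil-like cells 0 of 14 tested genes of the 5' TOP class had a positive value (median -0.26), and 9 of 14 mitochondrial ribosomal protein genes did (median 0.03).

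Whether the neutrophil-like values differed from those of lymphocytes was tested as an interaction. The CSD against HC difference in neutrophil-like cells was set against that in the pooled B-like, T-like and NK-like cells of the same libraries, so that a shift common to a whole library drops out. The interaction was negative in 77 of 78 members, at a median of -0.37, and 10 were called, where 2.05% of the 1369 genes tested were called lower. At an unadjusted p under 0.05 there were 64, where 22.1% of all genes tested were past that limit. DESeq2 did not call any of them, and the number of calls moved widely over the other settings. Scaling to UMIs outside the members and mt- genes moved the median of all genes from -0.03 to -0.18. It moved that of the members from -0.37 to -0.52. The 5 largest were Rps20 (-0.57 ± 0.115, edgeR adjusted p = 0.0270), Rpl13a (-0.55, edgeR adjusted p = 0.0322), the stalk protein Rplp1 (-0.54, edgeR adjusted p = 0.0322), Rpl22 (-0.54, edgeR adjusted p = 0.0437) and Rpl12 (-0.53, edgeR adjusted p = 0.0411). Rps20 had 1098, 1005 and 754 CPM in neutrophil-like and 3405, 3148 and 3481 CPM in lymphoid cells, so the CSD library was lowest in the first and highest in the second. Rpl13a had 2435, 2466 and 1856 CPM against 7000, 6612 and 7544 CPM, the same order. Rps9 was at 0.15 and not called (edgeR adjusted p = 0.475). Libraries enter this test as blocks, so its p-values measure how evenly the 3 libraries differ between cell types, and with 1 CSD pool they do not speak for other mice.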

How the data were processed

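Meningeal cells of 3 libraries were profiled by droplet single-cell RNA sequencing. The authors deposited 1 table of raw UMI counts per gene and barcode, made with Cell Ranger 2 on mm10 per the submitters' processing notes. Library sizes were 8814690 to 10206236 UMIs, and columns were given to libraries by the number in the barcode, which is the number in the library's label. Binomial intervals cover counting error only.

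Barcodes with at least 500 UMIs, a number of genes within the study's limits and under 8.3% mt- UMIs were kept, doublets included. Scrublet, run through scanpy 1.11.5, marked 47 and 25 barcodes in the HC libraries 1 and 2 by its automatic threshold. In the CSD library the 152 barcodes with the highest doublet scores were taken by rank instead. The numbers thus do not compare doublet rates between libraries. The marked barcodes were removed as an alternative only, which used a different rule for the CSD library. Cells were clustered (3000 variable genes without the 81 ribosomal protein genes, 50 components, mutual-nearest-neighbor correction with 20 neighbors, 15 neighbors in the graph, Leiden resolution 1) and named by marker lists. The UMIs of each cell type in a library were added up and compared by edgeR 4.0.16 (TMM scaling, quasi-likelihood test, two-sided, genes seen in more than 15% of cells, adjusted p below 0.05). Comparisons of cell types had library as a block. CSD against HC had 1 residual degree of freedom, on the assumption that CSD pools vary as HC pools do. DESeq2 1.42.0, other scalings, no filter, other cell filters, other clusterings, free RNA subtraction, thinning and leaving out each library were alternatives.

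On simulated counts with 200 genes changed by 1.5 on the log2 scale, edgeR recovered 99.5% for CSD against HC in neutrophils (1192 genes). It recovered 99.5% for T against neutrophil (1392 genes) and 26.5% for the interaction (1369 genes). Recovery of smaller folds, such as the members' median of -0.37 for CSD against HC in neutrophil-like cells, was not tested.

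Genes were named by rule: the 5 largest called rises and falls of each comparison, or the 3 highest and 3 lowest values where none was called. The rule also took copies ending in l, x or y, Rpsa and the stalk genes, and the 6 with the largest spread over types. Last came 8 genes listed for short mRNAs and up to 3 rises and falls of each pathway list. Values of 1 gene of the list outside the symbol rule are not reported here. Outside it, Rps20 and Rpl13a in the neutrophil CSD comparison, Rpl35 in the comparison of the HC libraries, the 3 least variable genes and the granulocyte cluster series were chosen after their values were seen. The members and lists were chosen with earlier results of these data known. The cluster 11 and cluster 12 splits were added after seeing the data. Samples of 1 group were separate pools of mice. Where library was a block, the p-values measure how evenly the 3 libraries differ between cell types. In CSD against HC they rest on the 2 HC pools and on variances that edgeR shares across genes. They do not measure the spread between CSD pools.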

Additional observations from a re-analysis of the deposited data

Results flagged for a closer look

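In the test of whether CSD against HC differed between neutrophil-like and lymphoid cells, 10 ribosomal protein genes passed the threshold, with edgeR's quasi-likelihood test. All 10 were more negative in neutrophil-like cells. The interaction on the log2 scale was -0.57 for Rps20, -0.55 for Rpl13a, -0.54 for Rplp1, -0.54 for Rpl22, -0.53 for Rpl12, -0.53 for Rps15, -0.52 for Rpl10a, -0.51 for Rpl30, -0.50 for Rpl32 and -0.47 for Rps18. Both subunits and the stalk are represented among them. The background was 2.05% of genes called lower. DESeq2 called none of the 78 members, and the cause of the difference was not tested.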

How the results depend on the processing

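Of 812 values of shares, medians and counts of called genes recomputed under the alternatives, 702 stayed close to the reported value, and of 1456 recomputed values of named genes 1331 kept their direction and side of the threshold. The causes of the changes below were not tested. Counts of called members below stand without the share of all genes called in the same setting. They therefore do not set the members apart from other genes. CSD against HC was not paired, because the labels name no pairing between HC and CSD pools.

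With the free RNA profile subtracted, the share of UMIs was 22.2% in border macrophage-like, 35.2% in cDC-like, 26.8% in immature B-like, 39.4% in mature B-like, 12.9% in microglia-like, 25.8% in monocyte-like, 4.53% in neutrophil-like, 34.0% in NK-like, 6.53% in olfactory neuron-like, 31.1% in pro-B-like and 41.9% in T-like cells. Leiden resolution 2 gave 20.1% in border macrophage-like, 26.6% in immature B-like, 30.6% in mature B-like and 25.6% in pro-B-like cells. The pro-B-like cluster of that setting held 36 cells. Thinning gave 19.99% in border macrophage-like, 28.9% in NK-like and 25.6% in pro-B-like cells, and no correction between libraries 20.3% in border macrophage-like cells.

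For CSD against HC, the neutrophil-like median was -0.47 scaled to UMIs outside the members and mt- genes, -0.46 thinned, -0.14 with no filter (1 member called higher, 2 lower) and -0.41 to -0.27 with 1 HC library left out, the latter without HC replicate 1. The T-like median was -0.0063 with no filter, -0.072 with Leiden resolution 2, -0.070 with the members kept in clustering, -0.16 with free RNA subtracted, -0.037 thinned and -0.070 to -0.054 without 1 HC library. The pro-B-like median was 0.15 scaled to UMIs outside the members, 0.17 with no filter, 0.15 at 1000 UMIs, 0.090 with Leiden resolution 2, 0.16 with no correction, 0.16 with free RNA subtracted, 0.12 thinned and 0.15 to 0.15 without 1 HC library. The median was 0.066 in border macrophage-like cells thinned, 0.12 in NK-like cells with no filter, 0.20 in microglia-like and 0.075 in olfactory neuron-like cells with free RNA subtracted, 0.016 to 0.15 in mature B-like and 0.0020 to 0.12 in microglia-like cells without 1 HC library. The olfactory neuron-like call of Rps28 went to 0 calls scaled to UMIs outside the members, with no filter, by DESeq2, at 1000 UMIs, with doublets removed, under 5% mt-, with free RNA subtracted and thinned. The interaction's 10 calls became 56 with DESeq2's size factors, 73 scaled to UMIs outside the members, 5 with no filter and 0 by DESeq2. They became 23 at 1000 UMIs, 0 with doublets removed, 0 under 5% mt- and 0 with Leiden resolution 2. There were 34 with no correction, 33 with the members kept in clustering, 0 with free RNA subtracted and 26 thinned. In the setting with 73, the median of all genes stood at -0.18. Relative to that median the members stood at -0.35, the same as in the main fit. Since the scaling shifts all genes nearly alike, that likeness was fixed in advance.

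For cell types, scaling to UMIs outside the members and mt- genes gave medians of 2.91 (T-like against neutrophil-like), 1.76 (preneutrophil-like against neutrophil-like), -0.29 (pro-B-like against mature B-like) and -0.23 (border macrophage-like against monocyte-like), no filter 1.49, 0.99, -0.38 and -0.17, and free RNA subtracted 2.85, 1.63 and -0.77 in the first 3. Thinning gave -0.78 for pro-B-like cells, cluster 12 alone 0.25 for preneutrophil-like cells with 44 called higher and 4 lower, and leaving out 1 library 1.84 to 2.01 for T-like cells. T-like cells had 2 members called lower with no filter. Preneutrophil-like cells had 0 called lower scaled to UMIs outside the members, 1 with no filter, 0 with free RNA subtracted and 0 (without HC replicate 1) to 2 without 1 library. Pro-B-like cells had 6 called higher scaled to UMIs outside the members, 4 with no filter, 0 with Leiden resolution 2, 1 with free RNA subtracted, 1 thinned and 1 to 2 without 1 library. Border macrophage-like cells had 1 called higher and 38 lower scaled to UMIs outside the members, 1 and 27 with no filter, 2 and 1 by DESeq2, 3 and 9 with no correction, 3 higher thinned, 8 lower with Leiden resolution 2, 2 lower with free RNA subtracted, and 2 to 11 higher and 2 to 5 lower without 1 library. Rps27 (0.57) and Rps9 (0.63) changed sign in preneutrophil-like cells scaled to UMIs outside the members, and Rpl28 (-0.089) in pro-B-like cells with Leiden resolution 2.

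Depth and the number of pools both limit these results: calls moved with thinning and with the 1000 UMI minimum, 1 CSD and 2 HC libraries cannot separate stress from the difference between pools, and HC replicate 1 departs from HC replicate 2 in short ribosomal protein genes in every type compared.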
